A study of Mus musculus with 38 samples.

Results

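Homologous recombination, the Fanconi pathway and mismatch recognition were followed through 39 genes taken from a list of symbols, and all 39 were matched to an Ensembl identifier in each of the 3 deposited count tables of 55487 genes. By role, 5 genes encode the BRCA1 and BRCA2 complexes, 6 help strand exchange, 9 form the Fanconi core complex with its ubiquitin-conjugating enzyme, 2 form the Fanconi clamp, and 7 sense and trim broken ends. A further 4 encode structure-specific nucleases, 3 are checkpoint kinases, 1 (Msh6) recognises mismatches, and 2 (Pif1 and Polq) are a helicase and the polymerase of an alternative end-joining route. All 39 passed the filter on low counts in each fit, so no member was left out of any comparison.

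Homologous recombination copies the lost sequence of a broken chromosome from its sister and is therefore used mainly in dividing cells. The MRE11-RAD50-NBN complex finds the break, nucleases resect the ends, and BRCA1 with BARD1 and PALB2 brings in BRCA2, which prepares the exposed strand for strand exchange. The Fanconi core complex attaches ubiquitin to FANCD2 and FANCI where DNA strands are crosslinked, and the unhooked lesion is then handed to recombination, while MSH6 is one subunit of the heterodimer that finds mispaired bases behind the replication fork.

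Of the 3 kinds of mouse cells studied, BV2 is a line made from microglia by immortalisation, GL261 is a line from a glioma, and bone marrow-derived macrophages (BMDM) are primary wild-type cells. Each was kept for 16 h at 21% oxygen (normoxia) or at 0.1% oxygen or less (hypoxia), alone or in co-culture at 2 glioma cells for each BV2 or 1 for each macrophage. In a separate experiment BV2 and BMDM received DMSO vehicle at either oxygen level, or, in hypoxia only, panobinostat at 10 nM, a drug that blocks histone deacetylases. The 38 libraries fall into 18 groups of 2, except the BMDM co-cultures in normoxia and in hypoxia with 3 each. The BV2 and GL261 lines are each 1 line, so libraries of a group are repeat cultures and not different animals, and how co-cultured cells were separated before sequencing is not given in the sources used here. The labels speak of biological replicates for the BV2 and GL261 monoculture and co-culture libraries only, so elsewhere p-values measure the spread between these libraries, which may be technical.

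Library totals ran from 9634700 to 27238933 counts, so that 3 counts, taken as the floor, correspond to 0.110 to 0.311 CPM (for this floor, counts scaled to the plain library total). The CPM levels below were scaled to the total of the genes tested in the fit of each cell type, with TMM factors. Levels of different cell types are therefore on different scales. Summed markers of macrophages and microglia stood at 2777 to 5218 CPM in BV2 and at 7380 to 11210 CPM in the BMDM of the co-culture experiment, against 3.75 to 49.1 CPM in GL261. GL261 in turn held 2414 to 3527 CPM of glioma and neural markers, and BV2 22.4 to 95.2 CPM. The BMDM libraries of the panobinostat experiment stood apart: their summed fibroblast markers were 3007 to 24480 CPM, against 68.7 to 584 CPM in the BMDM of the co-culture experiment, and their summed macrophage markers fell to 839 and 2076 CPM in the panobinostat group. The hypoxic DMSO library 1 of BMDM held 39.2 CPM of mitosis markers and its partner 538 CPM, and the normoxic DMSO pair 571 and 3059 CPM. Of 10 hypoxia markers, 9 rose in hypoxia in each of the 3 monocultures. Results from the BMDM of the panobinostat experiment are given separately, and the part of those cells and libraries in them was not tested.

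In normoxic monoculture all 39 genes were measured in both lines, and 19 were higher in BV2 than in GL261 and 8 lower at an adjusted p under 0.05, where 33.8% and 39.4% of all genes tested were higher and lower. The median member was 0.38 higher in BV2 on the log2 scale, and the median over all genes was -0.12. Atr, the kinase that answers to stalled forks, stood at 39.2 and 54.7 CPM in BV2 and at 18.7 and 21.7 CPM in GL261, a log2 difference of 1.33 ± 0.15 (SE). Fanca (chr8:123268300-123318576 in GRCm38), a Fanconi core subunit, stood at 83.5 and 95.2 CPM against 38.4 and 39.01 CPM, and Mre11a, the nuclease of the break-sensing complex, at 99.2 and 107 CPM against 46.0 and 45.2 CPM. In all 3 genes both BV2 libraries lay above both GL261 libraries. Fancg was the furthest in the other direction, with 11.6 and 11.2 CPM in BV2 and 36.7 and 36.4 CPM in GL261, a log2 difference of -1.56 ± 0.15. Eme1, the partner of the MUS81 nuclease, differed by -1.02 ± 0.13, Rad51c by -0.92 ± 0.15 and Nbn by -0.82 ± 0.12. Per kilobase of annotated exon the order of genes also differed between cells: Msh6 led in BV2 with 42.0 ± 4.97 CPM per kb (SD, n = 2), Nbn in GL261 with 24.9 ± 1.13, and Ankle1 in BMDM with 25.9 ± 1.77.

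Hypoxia lowered most of the repair genes in BV2. In monoculture 32 of the 39 fell and 1 rose, where 31% of all genes tested fell and 30.9% rose, and the median member changed by -0.83 on the log2 scale while the median over all genes was 0. The 2 hypoxic libraries did not overlap the 2 normoxic ones for 36 of the 39, which was not counted over all genes. With 2 libraries a group such separation also held for 18 of 39 between GL261 co-culture and monoculture in normoxia, where no member passed. Summed over the 39 genes, the level was 1777 and 1934 CPM in normoxia and 1173 and 1234 CPM in hypoxia. Markers of replication moved with it, from 5227 and 5143 CPM to 2200 and 1963 CPM, as did markers of mitosis, from 4700 and 4958 CPM to 1697 and 1628 CPM. Their part in the fall of the repair genes was not tested, and in bulk libraries fewer cells that hold a transcript and less of it per cell cannot be told apart.

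Pif1 (chr9:65587160-65595967), the helicase that unwinds G-quadruplexes and stalled replication structures, fell furthest in BV2. Its level was 50.8 and 57.2 CPM in the normoxic libraries and 2.00 and 3.40 CPM in the hypoxic ones, a log2 fold change of -4.31 ± 0.22 (adjusted p 2.3e-10, quasi-likelihood test of edgeR). Fanca fell from 83.5 and 95.2 CPM to 12.3 and 12.4 CPM, a change of -2.85 ± 0.14 (adjusted p 1.67e-10). Both hypoxic libraries lay below both normoxic ones in each gene, close to each other for Fanca and further apart for Pif1. Ankle1 (chr8:71406010-71409904), an endonuclease that cuts branched DNA, went from 53.2 and 58.7 CPM to 10.3 and 12.1 CPM, a change of -2.32 ± 0.14. Dna2 (chr10:62947026-62974185), a nuclease and helicase of long-range resection, went from 43.6 and 45.9 CPM to 10.6 and 10.1 CPM, a change of -2.12 ± 0.13. In each of these 4 genes the hypoxic libraries were below both normoxic libraries. Of the exon bases of Fanca, 10.5% also lie in exons of a gene on the other strand, and since the strand setting of the counting is not given in the sources used here, reads from there cannot be assigned with certainty.

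All 5 genes of the BRCA1 and BRCA2 complexes fell in BV2, by less than the 4 above. Brca1 (chr11:101488764-101551955) stood at 86.2 and 104 CPM in normoxia and at 58.0 and 70.1 CPM in hypoxia, a log2 fold change of -0.57 ± 0.16 (adjusted p 0.00646). Brca2 (chr5:150522630-150570329) went from 74.7 and 95.1 CPM to 48.7 and 55.6 CPM, a change of -0.70 ± 0.19 (adjusted p 0.00449). Bard1, the partner of BRCA1, Palb2, the bridge to BRCA2, and the BRCA1-bound helicase gene Brip1 changed by between -0.69 and -0.91. The 6 strand exchange helpers fell as well. Rad54l (chr4:116094264-116123690), whose product moves along DNA and aids strand exchange, had 50.5 and 50.3 CPM in normoxia against 23.6 and 26.6 CPM in hypoxia, a change of -1.003 ± 0.147. Xrcc2 and Xrcc3 changed by -1.69 ± 0.15 and -1.22 ± 0.18. For Rad54b, 35.8% of exon bases are shared with Fsbp on the same strand, so its counts are uncertain, and 15.4% of Rad54l exon bases lie in exons on the other strand.

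Of the 9 Fanconi core genes 6 fell in BV2 (Fanca, Fancb, Fance, Fancl, Fancm and Ube2t), and Fancc, Fancf and Fancg did not pass, at -0.22, -0.06 and 0.17. Fancl, the ubiquitin ligase subunit, changed by -1.10 ± 0.15 and Ube2t, its conjugating enzyme, by -0.61 ± 0.13. Exons on the other strand cover 13.7% of the exon bases of Fancl, 18.64% of Fancc and 15.95% of the clamp gene Fanci. The clamp genes fell alike: Fancd2 had 48.5 and 48.6 CPM in normoxia and 24.2 and 21.4 CPM in hypoxia, a log2 fold change of -1.09 ± 0.18, and Fanci changed by -1.21 ± 0.19. All 7 genes of break sensing and resection fell. Rad50, the coiled-coil ATPase that tethers the ends, went from 106 and 117 CPM to 75.4 and 73.1 CPM (-0.58 ± 0.11), and Rbbp8, which starts resection, from 50.2 and 54.7 CPM to 28.7 and 30.6 CPM (-0.82 ± 0.12). Exo1, the exonuclease that extends resection, fell further, by 1.51 ± 0.14 on the log2 scale.

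Among the nucleases Eme1 and Ankle1 fell in BV2, while Mus81 (-0.25) and the scaffold gene Slx4 (-0.02) did not pass. Of the checkpoint kinases, Chek1, which holds the cell cycle when forks stall, went from 56.6 and 57.0 CPM to 19.6 and 17.6 CPM, a log2 fold change of -1.61 ± 0.13. Atm, the kinase that answers to double-strand breaks, went from 47.5 and 60.5 CPM to 26.1 and 35.7 CPM (-0.80 ± 0.18), and Atr did not pass, at -0.24. Polq, the polymerase of alternative end joining, stood at 25.3 and 28.8 CPM in normoxia and at 11.3 and 12.0 CPM in hypoxia (-1.22 ± 0.21). The exception to the falls was Msh6 (chr17:87975062-87990892). It rose from 167 and 198 CPM to 315 and 356 CPM, a change of 0.88 ± 0.12 (adjusted p 7.09e-06), and both hypoxic libraries lay above both normoxic ones.

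**Figure D1:**
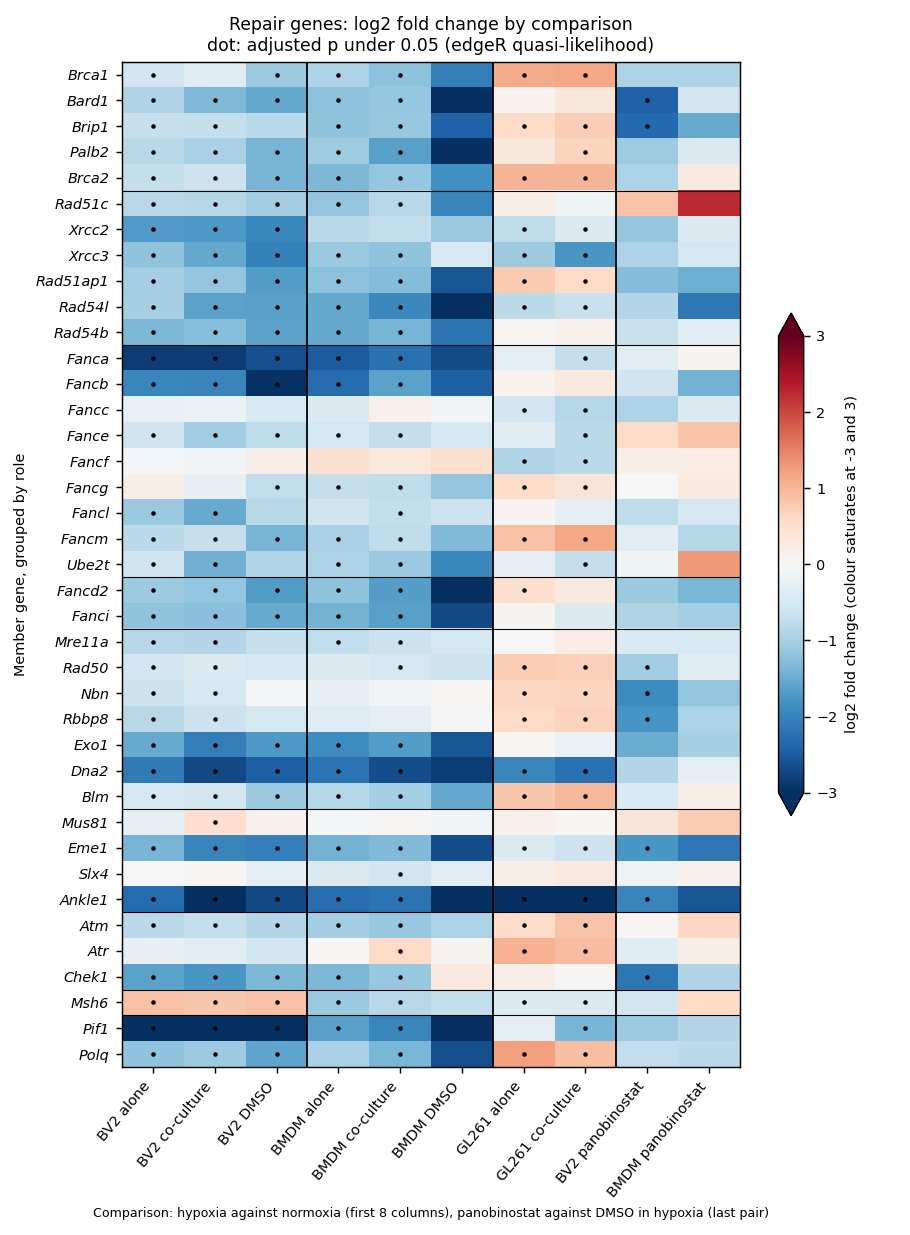
Log2 fold changes of the 39 genes, ordered by role, in each comparison of hypoxia with normoxia and of panobinostat with DMSO, as a colour scale from lower (blue) to higher (red), with a dot where the adjusted p was under 0.05. In BV2 monoculture 32 of 39 fell, and in GL261 monoculture 9 fell and 14 rose.

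In GL261 the same exposure moved the genes in both directions, with falls near the share over all genes. In monoculture 9 fell and 14 rose, where 21.4% and 23.2% of all genes tested did, the median member changed by 0.12 and the median over all genes was -0.03. The summed level of the 39 was 1494 and 1537 CPM in normoxia and 1968 and 1690 CPM in hypoxia, with the hypoxic libraries higher. Replication markers held 2888 and 2805 CPM in normoxia and 3063 and 2590 CPM in hypoxia, which overlap, and mitosis markers 4840 and 4754 CPM against 6469 and 4647 CPM, which overlap as well.

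The genes that rose in GL261 came from the BRCA complexes (3 of 5), break sensing and resection (4 of 7), the kinases (2 of 3) and the Fanconi genes (Fancg, Fancm and Fancd2), with Polq and the strand exchange helper Rad51ap1 beside them. Polq rose the furthest, from 16.1 and 15.8 CPM to 42.2 and 32.8 CPM, a log2 fold change of 1.24 ± 0.17 (adjusted p 0.00015). Brca1 went from 57.5 and 61.9 CPM to 150 and 106 CPM, a rise of 1.10 ± 0.16 (adjusted p 0.000308). Atr went from 18.7 and 21.7 CPM to 39 and 43.7 CPM, a rise of 1.03 ± 0.15. In all 3 the hypoxic libraries were above the normoxic ones, with the first hypoxic library higher than the second for Polq and Brca1. Brca2 rose from 47.5 and 54.2 CPM to 118 and 87.2 CPM (1.01 ± 0.16), Rad50 from 106 and 103 CPM to 200 and 153 CPM (0.75 ± 0.14), and Rbbp8 from 58.7 and 56.8 CPM to 90.5 and 83.5 CPM (0.59 ± 0.12). Atm had 29.3 and 35.1 CPM in normoxia and 47.4 and 48.0 CPM in hypoxia (0.57 ± 0.14), and Fancd2 had 49.8 and 52.3 CPM against 83.2 and 58.1 CPM (0.47 ± 0.17, adjusted p 0.0386). The other 6 that rose were Brip1, Rad51ap1, Fancg, Fancm, Nbn and Blm, by 0.56 to 0.89.

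The falls in GL261 were led by 2 genes that had also fallen in BV2. Ankle1 went from 51.8 and 58.5 CPM to 5.76 and 8.24 CPM, a log2 fold change of -2.99 ± 0.18 (adjusted p 1.22e-06), and Dna2 from 37.9 and 45.2 CPM to 9.39 and 12.1 CPM, a change of -1.96 ± 0.18. Xrcc3 went from 11.2 and 10.3 CPM to 4.46 and 5.78 CPM (-1.08 ± 0.20), and Fancf from 11.9 and 15.3 CPM to 5.92 and 8.83 CPM (-0.89 ± 0.28, adjusted p 0.0224). None of these 4 genes had overlapping groups. Of the Fancf exon bases, 14.96% also lie in exons of Gas2 on the other strand. Rad54l fell from 33.8 and 34.0 CPM to 20.9 and 18.1 CPM (-0.79 ± 0.15), and Msh6, which had risen in BV2, fell from 86.3 and 89.5 CPM to 68.8 and 64.1 CPM (-0.40 ± 0.13, adjusted p 0.0259). The remaining falls were those of Xrcc2, Fancc and Eme1, by 0.43 to 0.75. Pif1 (-0.28), Fanca (-0.28) and Chek1 (0.17) did not pass, with 34.7 and 30.1 CPM of Pif1 in normoxia against 27.4 and 25.9 CPM in hypoxia, 38.4 and 39.01 CPM of Fanca against 36.3 and 27.3 CPM, and 27.3 and 27.6 CPM of Chek1 against 33.2 and 28.5 CPM.

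The difference between the 2 lines was tested as an interaction over their 8 monoculture libraries. The fit, and so its estimate of spread, held all 16 BV2 and GL261 libraries of that experiment, co-cultures included. The hypoxic change was lower in BV2 than in GL261 for 27 of the 39 genes and higher for 3, where it was lower for 18.7% and higher for 18.7% of all genes tested. The median difference was -1.15 on the log2 scale, and that over all genes was 0.15. It was -3.92 ± 0.30 for Pif1 (adjusted p 3.63e-08), -2.47 ± 0.21 for Fanca, -2.35 ± 0.30 for Polq and -1.97 ± 0.33 for Fancb, a subunit that holds the core complex together. In the BRCA complexes it was -1.57 ± 0.26 for Brca1 and -1.61 ± 0.29 for Brca2. The other genes described by role, Fancd2, Rbbp8, Rad50, Atm and Chek1, differed by -1.24 to -1.68. The 3 that differed the other way were Msh6 (1.38 ± 0.18), Fancf (0.94 ± 0.35, adjusted p 0.0428) and Ankle1 (0.77 ± 0.24, adjusted p 0.015). Rad54l, Dna2 and Xrcc3, which fell in both lines, had differences of -0.11, -0.06 and -0.03, which did not pass. In each line on its own test, 12 genes fell in BV2 and rose in GL261, a pattern not counted over all genes. They were Brca1, Brip1, Brca2, Rad51ap1, Fancm, Fancd2, Blm, Atm, Rad50, Nbn, Rbbp8 and Polq.

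**Figure D2:**
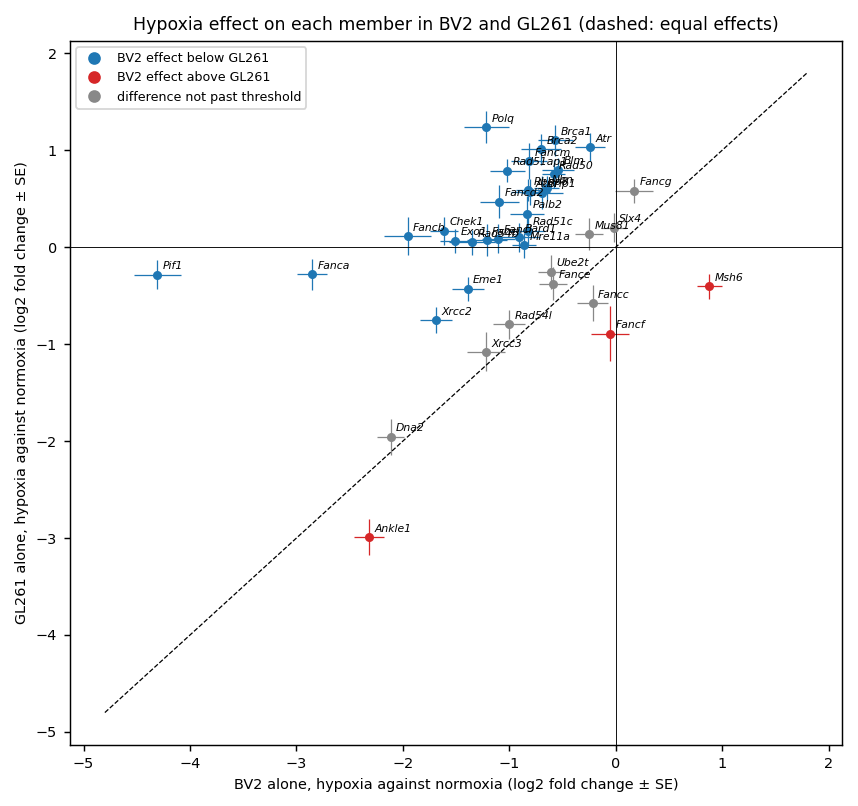
Log2 fold change in hypoxia (± SE) of each of the 39 genes in BV2 monoculture (horizontal axis) against that in GL261 monoculture (vertical axis), coloured by whether the difference between the lines passed and in which direction, with a dashed line of equal change. The 12 genes that fell in BV2 and rose in GL261 lie in the upper left, Ankle1 and Dna2 in the lower left, and Msh6 furthest to the right.

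Most of the genes fell in primary macrophages too. In BMDM monoculture 28 of 39 genes fell and 0 rose, where 10.6% and 13.3% of all genes tested fell and rose, by the quasi-likelihood test of edgeR. The median member changed by -1.07 and the median gene by 0.03. Groups did not overlap for 37 of 39, which was not counted over all genes. Fanca fell from 51.0 and 53.4 CPM to 8.15 and 10.4 CPM, a log2 fold change of -2.49 ± 0.18 (adjusted p 1.55e-05). Fancb went from 5.04 and 4.47 CPM to 0.800 and 1.10 CPM (-2.31 ± 0.37), and Ankle1 from 63.1 and 69.5 CPM to 11.6 and 15.4 CPM (-2.29 ± 0.24). Dna2 went from 38.5 and 44.5 CPM to 9.31 and 8.43 CPM (-2.22 ± 0.18), with the 2 hypoxic libraries of each of these 4 genes below both normoxic ones.

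The role genes in BMDM gave falls of 0.94 ± 0.28 for Brca1 (49.4 and 42.7 CPM to 18.4 and 29.7 CPM), 1.35 ± 0.26 for Brca2 (20.3 and 19.8 CPM to 6.84 and 8.84 CPM) and 1.54 ± 0.26 for Rad54l (50.2 and 50.6 CPM to 16.1 and 18.5 CPM) on the log2 scale. Pif1 fell by 1.62 ± 0.34 (32.3 and 36.6 CPM to 9.09 and 13.3 CPM), Chek1 by 1.36 ± 0.44 (7.83 and 6.68 CPM to 2.55 and 3.11 CPM), Fancd2 by 1.21 ± 0.32 (40.3 and 37.8 CPM to 14.7 and 19.0 CPM) and Atm by 1.04 ± 0.28 (13.7 and 14.7 CPM to 6.84 and 6.91 CPM). Msh6 went from 52.9 and 41.2 CPM to 22.3 and 21.5 CPM, a change of -1.11 ± 0.19 (adjusted p 0.0023), opposite in sign to its change in BV2; the difference itself was not tested. Rad50 (-0.41, adjusted p 0.142), Rbbp8 (-0.38, adjusted p 0.117) and Polq (-0.96, adjusted p 0.112) did not pass. Their levels were 71.9 and 62.4 CPM against 46.5 and 54.3 CPM for Rad50, 30.8 and 31.0 CPM against 23.1 and 24.6 CPM for Rbbp8, and 15.3 and 16.8 CPM against 6.47 and 9.95 CPM for Polq, with no overlap between oxygen levels. Of the genes that fell in BMDM, 9 rose in GL261, a pattern not counted over all genes: Brca1, Brip1, Brca2, Rad51ap1, Fancg, Fancm, Fancd2, Blm and Atm. Replication markers fell beside them, from 3143 and 2898 CPM to 1189 and 1372 CPM, and their part was not tested. The number of falls rested on all 4 libraries: it was 13 without normoxic library 1, 17 without normoxic library 2, 11 without hypoxic library 1 and 17 without hypoxic library 2.

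Across the 3 monocultures, 26 genes fell in both BV2 and BMDM, and 5 fell in all 3: Xrcc3, Rad54l, Dna2, Eme1 and Ankle1. These joint patterns were not counted over all genes. Mus81 and Slx4 passed in none of the 3. Eme1, the smallest change of the 5 in GL261, went from 29.3 and 26.1 CPM to 11.5 and 9.61 CPM in BV2, from 64.1 and 57.9 CPM to 46.5 and 44.1 CPM in GL261, and from 41.2 and 44.8 CPM to 14.9 and 17.3 CPM in BMDM. Each pair of groups was apart, and 10.72% of Eme1 exon bases lie in exons on the other strand.

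The bases just upstream of 4 of these 5 genes are shown because these genes fell in all 3 monocultures. They come from RefSeq on GRCm38.p6, read 5′ to 3′ on the strand of the gene, and end where annotated exons begin; capitals mark matches to the motifs searched, on either strand. The windows are chr8:71405892-71406009 on the plus strand for Ankle1, chr10:62946909-62947025 on the plus strand for Dna2, chr4:116123691-116123810 on the minus strand for Rad54l and chr12:111813880-111813999 on the minus strand for Xrcc3.
Ankle1: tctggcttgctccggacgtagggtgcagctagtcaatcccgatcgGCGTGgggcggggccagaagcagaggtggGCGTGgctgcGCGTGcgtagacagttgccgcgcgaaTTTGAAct
Dna2: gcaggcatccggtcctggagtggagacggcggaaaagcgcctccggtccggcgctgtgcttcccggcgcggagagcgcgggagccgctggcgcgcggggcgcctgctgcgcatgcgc
Rad54l: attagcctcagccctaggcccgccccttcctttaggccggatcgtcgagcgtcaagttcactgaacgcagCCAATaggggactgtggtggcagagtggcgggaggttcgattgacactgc
Xrcc3: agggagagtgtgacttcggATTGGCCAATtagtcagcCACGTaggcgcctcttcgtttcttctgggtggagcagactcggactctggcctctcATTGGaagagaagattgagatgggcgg

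The search covered 250 bases before the start of 31 members that were matched in the RefSeq table, and of 27025 promoters in all. The letters searched were the E2F words TTTCCCGC, TTTGGCGC, TTCCCGCC and TTGGCGGG, the cell cycle homology element TTTGAA, the CCAAT box, and the hypoxia element cores ACGTG and GCGTG. A hypoxia core stood in 22 of the 31 (71%, against 41.5% of all promoters), a CCAAT box in 17 (54.8% against 37.5%), an E2F word in 8 (25.8% against 3.88%) and the homology element in 3 (9.68% against 18.3%). Those with an E2F word were Bard1, Brca2, Brip1, Fancb, Fancg, Fancm, Msh6 and Rad51ap1, a group that includes members that fell and members that rose in hypoxia. The shown stretch of Ankle1 holds hypoxia cores and the homology element, that of Xrcc3 CCAAT boxes and a hypoxia core, that of Rad54l a CCAAT box, and that of Dna2 none of these letters. Such a match is a description of letters and not of a bound site.

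Most of the calls in hypoxia recurred in co-culture. In BV2 grown with GL261, 31 genes fell and 2 rose in hypoxia, where 32.1% and 35.2% of all genes tested did, with a median of -1.05 against 0.04 over all genes. All 31 of them had also fallen in monoculture, and Msh6 rose in both. Pif1 went from 49.9 and 49.3 CPM to 2.62 and 1.28 CPM (-4.66 ± 0.23), Ankle1 from 56.9 and 58.4 CPM to 6.01 and 4.43 CPM (-3.46 ± 0.16), Fanca from 76.97 and 74.8 CPM to 11.9 and 9.16 CPM (-2.85 ± 0.14) and Dna2 from 39.9 and 38.9 CPM to 6.01 and 6.12 CPM (-2.70 ± 0.14). The second hypoxic library was the lower of the pair in 3 of these 4 genes, and no groups overlapped. Msh6 rose from 133 and 126 CPM to 235 and 220 CPM (0.81 ± 0.12), and Mus81, which cuts stalled forks, from 21.0 and 24.0 CPM to 30.2 and 33.5 CPM (0.50 ± 0.14, adjusted p 0.00414). Brca1 no longer passed, with 63.4 and 55.9 CPM in normoxia and 55.5 and 37.0 CPM in hypoxia (-0.36 ± 0.17, adjusted p 0.0644). The other role genes in BV2 co-culture had changes of -1.59 for Rad54l, -1.74 for Chek1, -1.17 for Fancd2, -1.09 for Polq, -0.71 for Atm, -0.64 for Rbbp8, -0.62 for Brca2 and -0.41 for Rad50, all past the threshold.

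Within normoxia 8 BV2 members differed between co-culture and monoculture at an unadjusted p under 0.05 (edgeR quasi-likelihood test), as did 4345 of 14432 genes. At the adjusted threshold 4 were lower in co-culture and 0 higher, where 9.14% and 5.77% of all genes tested were. They were Brca1 (-0.67 ± 0.16), Brca2 (-0.60 ± 0.19), Fancm (-0.58 ± 0.17) and Msh6 (-0.50 ± 0.12), with adjusted p between 0.0116 and 0.0454. Leaving out 1 library brought the count to between 0 and 6, and it was 0 without the second library of either group and 2 without the first co-culture library. It was 7 without the low-count filter and 2 with a mean CPM of at least 5. It was also 2 with all genes at least 4 times higher in GL261 left out. None of Brca1, Brca2, Fancm and Msh6 was among those genes. Within hypoxia 9 were lower in co-culture and 1 higher, where 7.57% and 8.13% of all genes were. Ankle1 differed by -1.10 ± 0.17 (adjusted p 0.000309), Rad54l by -0.88 ± 0.16, Exo1, with 26.7 and 26.3 CPM alone and 18.3 and 12.5 CPM in co-culture, by -0.78 ± 0.15, and Dna2 by -0.77 ± 0.14. The other 5 were Bard1, Ube2t, Msh6, Eme1 and Fancl, by -0.54 to -0.74, and Mus81 was higher, by 0.60 ± 0.14. This count depended on the co-culture libraries, with 22 lower and 1 higher without the first hypoxic one and 6 lower without the second, and it was 20 without the low-count filter. The hypoxic change itself differed between co-culture and monoculture in 2 genes, where 2.19% of all genes tested differed. Ankle1 fell more in co-culture by 1.14 ± 0.21 (adjusted p 0.0172), and Ube2t, from 34.4 and 35.5 CPM to 12.9 and 12.9 CPM in co-culture and from 33.8 and 29.2 CPM to 21.8 and 19.7 CPM alone, by 0.83 ± 0.18 (adjusted p 0.0312), both on the log2 scale. That count was 5 without the first hypoxic co-culture library, 0 without the second normoxic co-culture library, and 1 without the first of that pair, the second normoxic monoculture library or the first hypoxic one.

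RNA that could have come from the partner was estimated from genes specific to one line at a mean of 2.22% in the hypoxic BV2 co-cultures and 0.760% in the normoxic ones. With all genes at least 4 times higher in GL261 left out, 27 of the remaining 34 members fell in BV2 co-culture and 2 rose. The 5 members left out were Rad54b, Fancg, Nbn, Eme1 and Pif1. Pif1 is such a gene, at 17.2 and 13.4 CPM in the hypoxic GL261 co-cultures against 2.62 and 1.28 CPM in the BV2 ones.

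**Figure D3:**
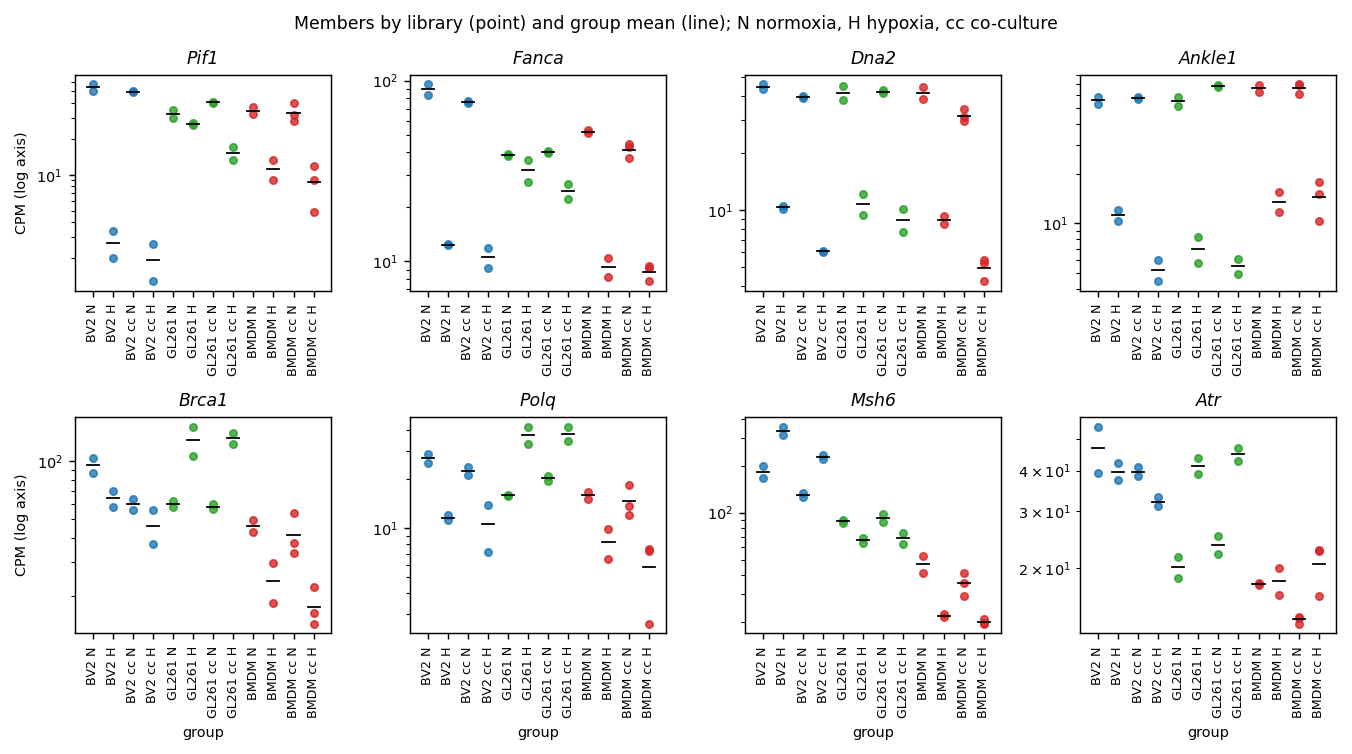
Level in CPM on a log axis of 8 of the genes (Pif1, Fanca, Dna2, Ankle1, Brca1, Polq, Msh6 and Atr) in the BV2, GL261 and BMDM groups grown alone or in co-culture (cc), in normoxia (N) or hypoxia (H), with 1 point per library and a line at the group mean. Ankle1 and Dna2 are lower in every hypoxic library than in the normoxic ones of the same cells, and Msh6 goes up in BV2 and down in GL261 and BMDM.

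In GL261 grown with BV2, 13 genes fell and 14 rose in hypoxia, where 25.6% and 26.8% of all genes tested did, with a median of 0.13. Of these, 9 falls and 13 rises had also been called in monoculture. Ankle1 went from 68.9 and 67.2 CPM to 4.92 and 6.06 CPM (-3.63 ± 0.19), Dna2 from 41.4 and 42.7 CPM to 7.63 and 10.1 CPM (-2.24 ± 0.19) and Xrcc3 from 14.0 and 13.2 CPM to 3.98 and 4.14 CPM (-1.74 ± 0.21). Pif1 passed here, from 40.0 and 40.7 CPM to 17.2 and 13.4 CPM (-1.40 ± 0.16), as did Fanca, from 40.0 and 40.7 CPM to 22.2 and 26.8 CPM (-0.72 ± 0.16). Brca1 rose from 59.7 and 56.3 CPM to 138 and 122 CPM (1.17 ± 0.16), Fancm, the DNA translocase that anchors the core complex, from 23.6 and 28.5 CPM to 61.8 and 55.5 CPM (1.17 ± 0.19) and Brca2 from 48.8 and 49.1 CPM to 106 and 92.3 CPM (1.02 ± 0.16). The other role genes that passed were Polq (0.91), Atm (0.85), Rad50 (0.72), Rbbp8 (0.69), Msh6 (-0.43) and Rad54l (-0.67), while Fancd2 (0.27, adjusted p 0.205) and Chek1 (0.04) did not. Between co-culture and monoculture 0 members differed in normoxia (0.514% of all genes did) by the quasi-likelihood test of edgeR, and 0 by DESeq2. At an unadjusted p under 0.05 by edgeR there was 1 member, and 1287 of 15189 genes. In hypoxia 1 differed, Pif1 (-0.80 ± 0.16, adjusted p 0.0371), where 1.39% of all genes did, and the count was 0 without either monoculture library or without the second co-culture library. The hypoxic change differed between the 2 settings for 0 members and 0% of all genes tested by edgeR, and for 1 member by DESeq2. At an unadjusted p under 0.05 by edgeR there were 3 members, and 1354 of 15189 genes.

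In BMDM grown with GL261, 32 genes fell and 1 rose in hypoxia over 3 libraries a group, where 17.3% and 17.5% of all genes tested did, with a median of -1.14 against 0.03 over all genes. All 28 falls of the monoculture were among them. Dna2 went from 30.8, 34.1 and 29.6 CPM to 4.22, 5.43 and 5.25 CPM (-2.66 ± 0.16, adjusted p 3.58e-06), Fanca from 42.7, 37.4 and 44.3 CPM to 9.44, 7.74 and 9.15 CPM (-2.24 ± 0.15) and Ankle1 from 68.9, 60.8 and 69.9 CPM to 17.8, 10.3 and 15.1 CPM (-2.21 ± 0.19). Pif1 went from 39.6, 31.6 and 28.2 CPM to 11.9, 4.91 and 9.06 CPM (-1.95 ± 0.28). All 3 hypoxic libraries lay below all 3 normoxic ones in these 4 genes, and the second hypoxic library was the lowest for Fanca, Ankle1 and Pif1. Atr was the gene that rose, from 14.1, 14.1 and 13.5 CPM to 22.7, 16.4 and 22.6 CPM (0.56 ± 0.16, adjusted p 0.0204). Of the other role genes, Rad54l (-1.94), Fancd2 (-1.66), Polq (-1.37), Brca1 (-1.24), Brca2 (-1.16), Atm (-1.15), Chek1 (-1.14), Msh6 (-0.83) and Rad50 (-0.51) fell and Rbbp8 (-0.27, adjusted p 0.136) did not pass. The partner share was a mean of 3.74% in hypoxia and 2.43% in normoxia, and 17 members were at least 4 times higher in GL261. With all genes that high in GL261 left out, 17 of the remaining 22 members fell and 1 rose.

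Between BMDM co-culture and monoculture 0 members differed in normoxia by the quasi-likelihood test of edgeR, where 1.64% of all genes did, and 0 by DESeq2. At an unadjusted p under 0.05 by edgeR there were 4 members, and 1905 of 14806 genes. In hypoxia 1 differed, where 7.11% of all genes did: Dna2 was lower in co-culture by 0.83 ± 0.17 on the log2 scale (adjusted p 0.0207). That count was 3 without the first hypoxic co-culture library and 0 without the third or without either monoculture library. It was also 0 with all genes at least 4 times higher in GL261 left out, and Dna2 was not among them. The hypoxic change differed for 0 members and 0% of all genes by edgeR, and for 0 members by DESeq2. At an unadjusted p under 0.05 by edgeR there were 0 members, and 636 of 14806 genes.

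**Figure D4:**
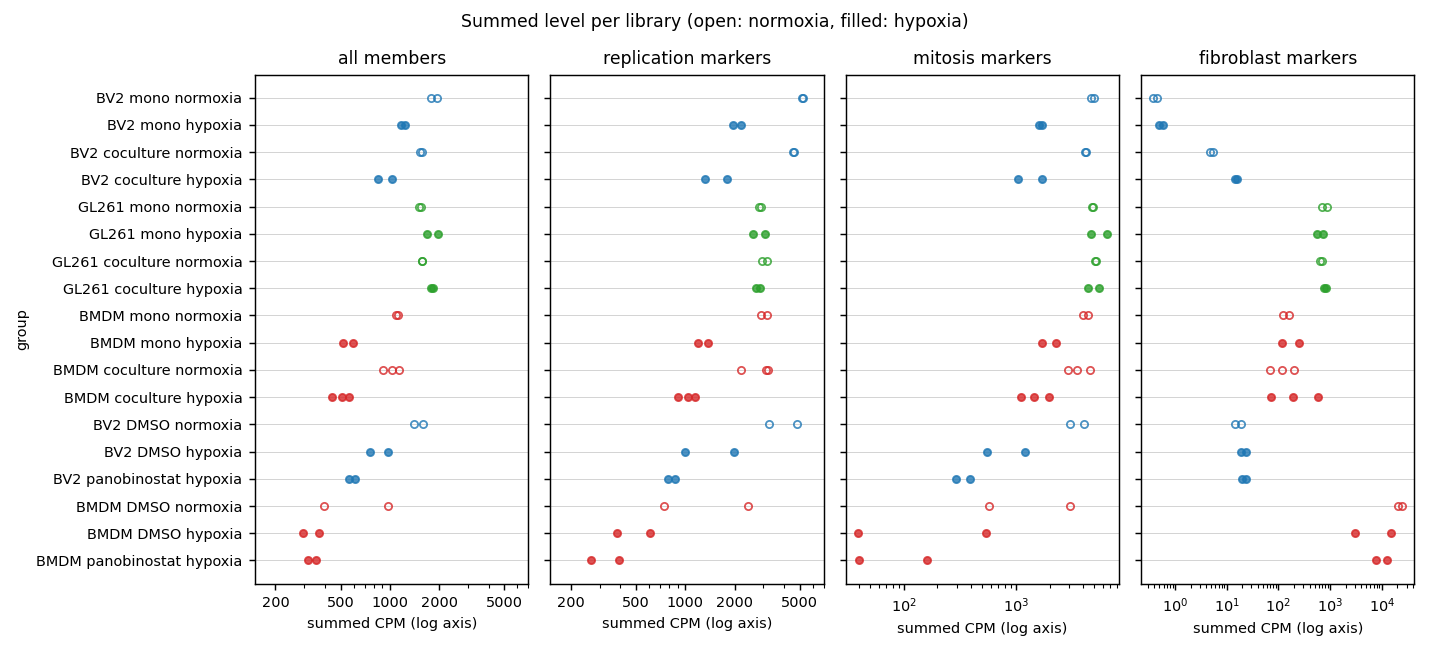
Summed level in CPM of the 39 repair genes and of replication, mitosis and fibroblast markers in each library of the 18 groups, on log axes, with open points for normoxia and filled points for hypoxia. In BV2 monoculture the repair genes fell from 1777 and 1934 CPM to 1173 and 1234 CPM while in GL261 monoculture they went from 1494 and 1537 CPM to 1968 and 1690 CPM.

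The DMSO libraries of the panobinostat experiment gave the hypoxic comparison in BV2 again, in a table of its own. There 26 of 39 genes fell and 1 rose, where 20.2% and 17.2% of all genes tested did, with a median of -1.35, and 25 of the falls and the rise of Msh6 had also been called in the untreated BV2 monocultures. Pif1 went from 40.7 and 46.3 CPM to 0.943 and 1.79 CPM (-4.97 ± 0.44), Fancb from 9.24 and 11.6 CPM to 0.786 and 1.87 CPM (-2.96 ± 0.45), Ankle1 from 76.6 and 61.0 CPM to 6.996 and 13.97 CPM (-2.71 ± 0.34) and Fanca from 92.3 and 82.6 CPM to 10.7 and 17.5 CPM (-2.63 ± 0.27). The first hypoxic library was the lower of the pair in all 4, and groups did not overlap. Msh6 rose from 118 and 157 CPM to 273 and 236 CPM (0.89 ± 0.22, adjusted p 0.0101). Brca1 went from 79.2 and 81.2 CPM to 24.8 and 50.9 CPM (-1.08 ± 0.30), and Brca2 (-1.40), Rad54l (-1.62), Fancd2 (-1.67), Chek1 (-1.35), Atm (-0.88) and Polq (-1.59) fell as well. Rbbp8 (-0.52, adjusted p 0.206) and Rad50 (-0.53, adjusted p 0.0688) did not pass. The count was 13 lower and 1 higher without normoxic library 2, and 16 lower without hypoxic library 1.

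With panobinostat in hypoxia 8 of the 39 genes were lower in BV2 than with DMSO and 0 higher, where 7.39% of all genes tested were lower and 7.21% higher. The median member changed by -0.88 against DMSO. An unadjusted p under 0.05 (edgeR quasi-likelihood test) was found for 22 members and for 4163 of the 13294 genes tested. Groups did not overlap for 26 members, which was not counted over all genes. Bard1 (chr1:71027498-71103146) stood at 4.56 and 12.6 CPM with DMSO and at 1.21 and 1.95 CPM with panobinostat, a log2 fold change of -2.43 ± 0.48 (adjusted p 0.0127). Brip1 had 8.57 and 17.8 CPM against 2.496 and 2.74 CPM (-2.33 ± 0.37, adjusted p 0.00559), and Chek1 7.07 and 15.1 CPM against 1.45 and 3.46 CPM (-2.16 ± 0.46, adjusted p 0.0153). The first DMSO library was the lower of its pair in these 3 genes and still lay above both treated libraries. Ankle1 had 6.996 and 13.97 CPM against 2.01 and 3.17 CPM (-2.01 ± 0.38, adjusted p 0.01).

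Break sensing held 3 of the 8. Nbn, the subunit that recruits ATM, stood at 17.9 and 17.0 CPM with DMSO and at 4.35 and 4.97 CPM with panobinostat (-1.90 ± 0.27, adjusted p 0.00361), and with DMSO alone it did not pass between hypoxia and normoxia, which had 15.9 and 20.7 CPM (-0.07, adjusted p 0.847). Rbbp8 had 21.9 and 30.1 CPM against 5.48 and 9.66 CPM (-1.78 ± 0.32), and Rad50 56.0 and 73.9 CPM against 31.1 and 32.0 CPM (-1.04 ± 0.21). Both pairs of each gene were apart. Eme1 fell by 1.74 ± 0.39 on the log2 scale, from 4.72 and 8.14 CPM to 1.37 and 2.45 CPM. Of its exon bases, 10.72% lie in exons on the other strand. The strand exchange helpers and the Fanconi genes had 0 calls, and Rad51c, at 3.46 and 4.63 CPM against 7.97 and 6.78 CPM, stood higher without passing (0.86 ± 0.32, adjusted p 0.0938). Among the role genes that did not pass were Brca1 (-0.93, adjusted p 0.0705), Brca2 (-0.95), Fancd2 (-1.11), Pif1 (-1.09), Rad54l (-0.87), Polq (-0.73), Msh6 (-0.56), Fanca (-0.32) and Atm (0.05).

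Of the 8, Bard1, Eme1, Ankle1 and Chek1 had also fallen in hypoxia with DMSO, and the 2 comparisons share the DMSO hypoxia libraries. Replication markers went from 992 and 1985 CPM with DMSO to 783 and 861 CPM with panobinostat, and mitosis markers from 549 and 1199 CPM to 293 and 393 CPM; their part was not tested. The number of calls moved with the libraries, being 18 without hypoxic DMSO library 1 and 2 without panobinostat library 1, and it was 19 without the low-count filter.

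**Figure D5:**
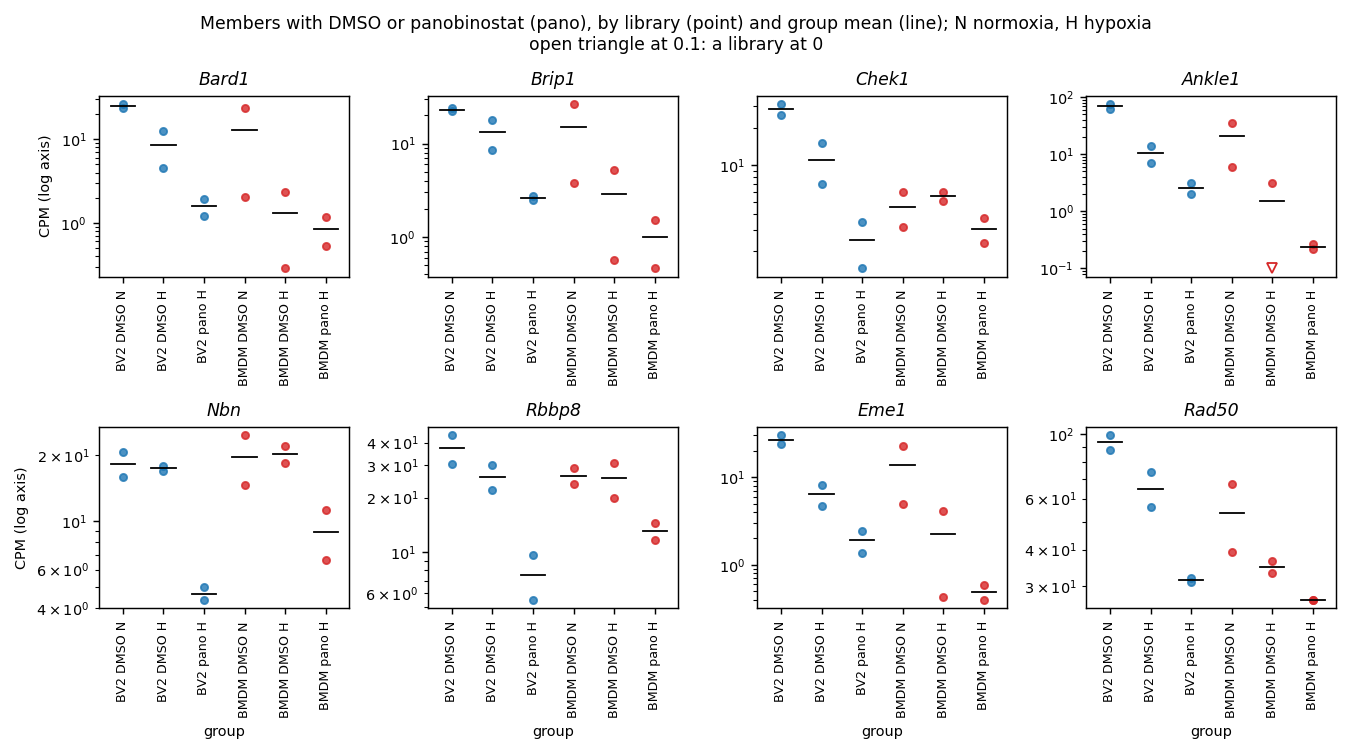
Level in CPM of the 8 members called with panobinostat in BV2, with 1 point per library and a line at the group mean, in the DMSO normoxia, DMSO hypoxia and panobinostat hypoxia groups of BV2 and BMDM, on a log axis, with open triangles at 0.1 for libraries with no counts. In BV2, Nbn is at 17.9 and 17.0 CPM in the DMSO hypoxia libraries and at 4.35 and 4.97 CPM in the treated ones.

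In BMDM with DMSO or panobinostat the spread between libraries was wide. Between hypoxia and normoxia 0 members passed by the quasi-likelihood test of edgeR, where 0.483% of all genes did. By DESeq2 3 passed, and without the low-count filter 22 did, with the shares over all genes under those settings not given here. At an unadjusted p under 0.05 by edgeR there were 7 members, and 3786 of the 14914 genes tested. The median change was -1.82. Ankle1 stood at 5.92 and 35.8 CPM in normoxia and at 0 and 3.10 CPM in hypoxia, with the second normoxic library the higher, and Brca1 at 7.38 and 58.4 CPM against 3.57 and 12.3 CPM, with overlap. The smallest adjusted p was 0.0937, for Palb2, at 5.85 and 16.9 CPM against 0.928 and 1.88 CPM (-3.04 ± 0.74). Of the role genes Fanca had 9.65 and 43.6 CPM against 0.571 and 7.87 CPM, Pif1 4.97 and 17.1 CPM against 0 and 2.10 CPM, and Msh6 24.9 and 52.7 CPM against 21.0 and 25.6 CPM. Fibroblast markers were 24480 and 20450 CPM in normoxia and 3007 and 14770 CPM in hypoxia, and macrophage markers 10690 and 7109 CPM against 4004 and 5355 CPM; their part was not tested.

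Panobinostat against DMSO in hypoxic BMDM gave 0 members by edgeR, where 0% of all genes tested passed, and a median change of -0.46. By DESeq2 2 passed, and without the low-count filter 5 did, with the shares over all genes under those settings not given here. At an unadjusted p under 0.05 by edgeR there were 5 members, and 3868 of the 14914 genes tested. Rad51c, one of the strand exchange helpers, was the nearest, at 1.21 and 0.665 CPM with DMSO and 5.14 and 3.996 CPM with panobinostat (2.25 ± 0.59, adjusted p 0.0901 by edgeR and 0.0184 by DESeq2). Its treated libraries lay above its DMSO libraries, as they did in BV2. Nbn had 22.1 and 18.5 CPM against 11.2 and 6.61 CPM (-1.19 ± 0.40, adjusted p 0.139) and Rbbp8 31.1 and 19.8 CPM against 14.5 and 11.8 CPM (-0.95 ± 0.32), neither of which passed. The panobinostat change differed between BV2 and BMDM for 0 members by edgeR, where 0.0251% of all genes differed, and for 0 by DESeq2. At an unadjusted p under 0.05 by edgeR there was 1 member, and 1793 of 15955 genes. In normoxia with DMSO 7 members were higher in BV2 than in BMDM and 0 lower, where 17.1% and 27.1% of all genes were. Chek1 (2.43 ± 0.52), Brca2 (1.93 ± 0.55) and Msh6 (1.64 ± 0.33) led, ahead of Blm, Fancm, Mre11a and Xrcc3, by 1.19 to 1.48. The count was 15 without BMDM library 2, 2 without BMDM library 1 or BV2 library 2, and 3 without BV2 library 1.

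Related gene lists were counted in the same fits. In monoculture 31% of all genes tested fell and 30.9% rose in BV2, 21.4% and 23.2% in GL261, and 10.6% and 13.3% in BMDM. Of 44 other genes of recombination, Fanconi and mismatch repair, 29 fell and 1 rose in BV2 monoculture, 11 fell and 17 rose in GL261, and 15 fell and 0 rose in BMDM, with medians of -0.65, 0.08 and -0.34 on the log2 scale. Faap24, a Fanconi core-associated gene, changed most in BV2 (-2.35), Zgrf1 in GL261 (1.34) and Tonsl in BMDM (-1.45). Of 28 replication markers, 28 fell in BV2, 7 fell and 5 rose in GL261, and 27 fell in BMDM, with medians of -1.38, 0.01 and -1.35, and Mcm2, a subunit of the replicative helicase, changed by -2.40 in BV2. The 14 end-joining genes, which mend breaks without a template, were near the shares over all genes in BV2 (5 fell and 4 rose). In GL261 2 of them fell and 6 rose. With panobinostat in BV2, 11 of the 28 replication markers, 9 of the 44 other recombination genes and 0 of the 14 end-joining genes fell. Of all genes tested there, 7.39% fell.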

How the data were processed

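RNA-seq of 38 mouse libraries was used as raw counts per gene, which the authors deposited in 3 tables of 55487 Ensembl genes: BV2 with GL261, BMDM with their co-cultures, and the panobinostat experiment. Per the submitters' processing notes the tools included Trimmomatic 0.36, STAR 2.6 and HTSeq 0.9.1 on mm10, and the strand setting and annotation are not given in the sources used here. Library totals ran from 9634700 to 27238933 counts, and no column was left unmatched to a label. No library was identical to another of its group, and libraries of different groups were not compared. The floor of 3 counts covers counting error only, while SE and SD hold the spread between libraries.

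Each cell type was fitted within its table with edgeR 4.0.16 in R 4.3.3 (TMM scaling, filterByExpr with a minimum count of 10, quasi-likelihood test, Benjamini-Hochberg adjustment over all genes tested, threshold 0.05); differences between cell types came from 1 fit over both. Printed CPM levels use the totals of the genes tested in the fit of each cell type with the TMM factors, as do fold changes within a cell type. Differences between cell types use the scaling of the fit over both, so the printed levels do not give them exactly. The floor of 3 counts uses plain library totals. The members and lists were chosen with earlier results of these data known. Genes were named by rule: up to 4 largest falls and 3 largest rises past the threshold per comparison, 12 role genes in the hypoxia and panobinostat comparisons, members called in opposite directions in different cells, and up to 2 genes per other list. Genes outside that rule, such as Exo1, Xrcc2, Eme1 and Nbn beside their roles, were named after their values were seen. Partner RNA was estimated from genes at least 100 times higher in the partner.

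The labels do not say that replicate numbers pair libraries, and the fits reported used no pairing. In the BMDM co-cultures the 3 same-numbered pairs had correlated deviations (0.553, 0.233 and 0.371), which is only a hint of pairing. Elsewhere groups shared 2 numbers, too few to pair them by correlation. Alternatives were DESeq2 1.42.0, its size factors, no filter beyond 1 count and a mean CPM of at least 5. Others were a replicate block, only the groups compared, all genes at least 4 times higher in the partner left out, and each library left out. The scripts were tested on simulated data. Sequences and promoters are from RefSeq on GRCm38.p6, the assembly of mm10.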

Additional observations from a re-analysis of the deposited data

Results flagged for a closer look

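The hypoxic change differed between BV2 and GL261 monocultures for 30 of the 39 genes by an interaction term (quasi-likelihood test of edgeR), where 18.7% of all genes tested were lower in BV2 and 18.7% higher. The difference on the log2 scale was -3.92 for Pif1, -2.47 for Fanca, -2.35 for Polq, -1.97 for Fancb, -1.68 for Chek1, -1.61 for Brca2, -1.57 for Brca1, -1.47 for Fancd2, -1.31 for Rbbp8, -1.27 for Atm and -1.24 for Rad50. It was 1.38 for Msh6, 0.94 for Fancf and 0.77 for Ankle1, which fell further in GL261.

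The hypoxic change differed between co-culture and monoculture of BV2 for 2 genes by the same kind of term, Ankle1 (-1.14) and Ube2t (-0.83). Of all genes tested 2.19% differed, and the count of members moved when 1 library was left out.

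In all, 9 genes fell in BMDM monoculture and rose in GL261 monoculture, some of them among those above. That pattern was not counted over all genes. Msh6 rose in BV2 by 0.88 and changed by -1.11 in BMDM. Those differences were not tested.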

How the results depend on the processing

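No count of called members changed its direction. The shares of all genes called under the alternatives are not given here, so these counts have no background beside them. The counts of called members between oxygen levels in BV2 and GL261, alone and in co-culture, and those of the differences between these lines in monoculture stayed within 1.5 times under the alternatives run. Without the low-count filter the count of called members was 7 for BV2 co-culture against monoculture in normoxia (4 as reported), 20 for the same in hypoxia (10), 4 for the difference of the BV2 hypoxic changes (2), 1 for that of GL261 (0), 19 for panobinostat in BV2 (8), 22 for BMDM with DMSO (0), 5 for panobinostat in BMDM (0) and 17 for BV2 against BMDM with DMSO (7). With a mean CPM of at least 5 it was 2 for BV2 co-culture in normoxia and 0 for BMDM co-culture in hypoxia (1). With genes high in the partner left out it was 2 for BV2 co-culture in normoxia and 18 for BMDM co-culture between oxygen levels (33). It was then 0 for BMDM co-culture against monoculture in hypoxia. With only the groups compared in the fit it was 0 for the co-culture contrasts in hypoxia of GL261 (1) and BMDM. DESeq2 gave 1 for the difference of the GL261 hypoxic changes, 3 for BMDM with DMSO and 2 for panobinostat in BMDM. With a replicate block the count was 23 for panobinostat in BV2, 15 for BMDM with DMSO and 13 for BV2 against BMDM with DMSO. The block left the BMDM co-culture, where same-numbered libraries had correlated deviations, at 33. It moved no other count by over 1.5 times. In the panobinostat experiment same-numbered libraries share only a number in the labels, and their deviations correlated at a mean of 0.408 in BV2 and 0.466 in BMDM, as a hint from the data.

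Leaving out 1 library gave 0 to 6 for BV2 co-culture in normoxia, 6 to 23 for it in hypoxia, 0 to 5 for the difference of the BV2 hypoxic changes, 0 to 1 for GL261 co-culture in hypoxia, 11 to 17 for BMDM monoculture between oxygen levels, 0 to 3 for BMDM co-culture in hypoxia, 14 to 28 for BV2 with DMSO, 2 to 18 for panobinostat in BV2 and 2 to 15 for BV2 against BMDM with DMSO. Where this left a group with 1 library, its spread was taken from the other groups. The causes of these moves, other than fewer libraries or genes, were not tested. Of the named genes, 179 of 183 values stayed on their side of the threshold with DESeq2 and 728 of 831 with 1 library left out. No value that passed in the reported fit or in the alternative changed its sign.

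Depth limits the lowest genes: 3 counts are 0.110 to 0.311 CPM, and Ankle1, Pif1 and Exo1 were among the genes at or below that floor in at least 1 BMDM library of the panobinostat experiment.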

Other observations

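Other repair and cell cycle genes were counted in the same fits. Over all genes tested in monoculture, 31% fell and 30.9% rose in BV2, 21.4% and 23.2% in GL261, and 10.6% and 13.3% in BMDM. Of 19 base excision genes, which mend single damaged bases, 13 fell and 1 rose in BV2 monoculture, 6 fell and 4 rose in GL261, and 8 fell and 2 rose in BMDM; in BV2 the glycosylase gene Neil2 rose by 2.00 and the endonuclease gene Apex1 changed by -1.82 on the log2 scale. Of 19 nucleotide excision genes, 11 fell and 2 rose in BV2, 1 fell and 7 rose in GL261, and 4 fell and 2 rose in BMDM, with Ercc8, a gene of repair in transcribed strands, at -2.15 in BV2. Of 23 regulators of entry into S phase, 17 fell and 3 rose in BV2, 3 fell and 7 rose in GL261, and 14 fell and 0 rose in BMDM. Ccne1, the cyclin of S phase entry, changed by -2.06 in BV2 and -1.97 in BMDM. Of 10 p53 targets, 3 fell and 5 rose in BV2 and 2 fell and 6 rose in GL261, and Cdkn1a, the inhibitor of cyclin-dependent kinases, rose by 3.68 in BV2 and by 1.76 in GL261.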
